A study of Mus musculus with 6 samples.

Results

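The genes described here were 10 glutathione transferases: Gstp1 (pi class), Gstt1, Gstt2 and Gstt3 (theta), Gsto1 (omega), Gsta1 and Gsta4 (alpha), Gstm1 and Gstm2 (mu) and Mgst1 (microsomal). They were taken by gene symbol from a count table of 30438 symbols, which held 27 transferase genes in all. The list was selected on knowledge of how these genes compared between the same libraries, so their differences are given as a description without p-values. All 10 members had enough counts to be tested, but Gstt3 and Gsta1 passed the count filter through the control libraries, where they were higher.

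Glutathione transferases couple the tripeptide glutathione to reactive, electrophilic molecules, which makes these molecules more water soluble and ready for export. The soluble enzymes fall into classes named after Greek letters (pi, theta, omega, alpha, mu and others), and a separate membrane-bound family sits in the endoplasmic reticulum and the outer mitochondrial membrane. Many of their genes are textbook targets of NRF2, a transcription factor encoded by Nfe2l2, which binds the antioxidant response element together with a small MAF protein. In the cochlea, glutathione conjugation is one of the routes by which cells handle oxidants and platinum drugs.

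The libraries came from HEI-OC1, a mouse cell line derived from the organ of Corti and described in the labels as a cochlear stem cell. Poly(A) RNA was sequenced for 3 Nrf2 KO-labelled libraries, in which Nrf2 was the knockout target, and for 3 control libraries of the wild-type line. Both groups grew untreated in DMEM with 10% FBS and 1% penicillin-streptomycin, at 33 °C and 10% CO2. The labels give neither the site of the edit nor whether the knockout line is 1 clone, and they do not say that replicates were separate cultures. The p-values below therefore set the group difference against the spread between these libraries, which may be technical. They do not extend to other knockout clones or cultures.

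Nfe2l2 itself was not reduced at the transcript level. It had 395.7, 235.6 and 204.5 CPM (counts scaled to library size) in the Nrf2 KO-labelled libraries, against 74.2, 126.5 and 96.7 CPM in the control libraries. The log2 fold change was 1.49 (SE 0.33), with an adjusted p of 0.0456 by edgeR's quasi-likelihood test. The value lay between 0.98 and 1.71 over 15 alternative settings, and the call ended under upper-quartile scaling, under scaling by library size alone and without any 1 library other than Nrf2 KO replicate 1. Whether the transcript still encodes a protein cannot be read from counts per gene, so each direction below refers to the libraries as labelled. Total counts ran between 29130007 and 51285343 per library labelled Nrf2 KO and between 38636523 and 44098578 per control library. Replicate 1 of the Nrf2 KO label stood apart from its group, with a correlation of 0.931 and 0.939 with replicates 2 and 3, against 0.995 between replicates 2 and 3. Of the 9 prosensory and supporting cell markers, Sox2 and Sox10 were at 0 in every library, and 5 were tested, of which edgeR called 1 higher and 0 lower. That gene, Sox9, averaged 36.6 CPM under the Nrf2 KO label and 8.02 CPM in controls, while Jag1, Fgfr3 and Cdkn1b were present in both groups and not called. The median log2 fold change of the 5 was -0.32, and DESeq2 called 2 higher and 0 lower. Jag1 was called higher with the replicate number as a block and without Nrf2 KO replicate 1, where Fgfr3 was called lower. Those fits called 10.4% and 15.6% of all genes higher, and the latter 14.5% lower. The hair cell genes Atoh1 and Slc26a5 were at 0 in every library. The annotation used for counting is not given, so a 0 for these genes, Sox2 or Sox10 need not mean an absent transcript. The summed hair cell markers lay between 15.3 and 30.1 CPM under the Nrf2 KO label and between 1.3 and 1.73 CPM in controls. Most of this sum was Myo7a, which averaged 20.3 CPM under the Nrf2 KO label and 1.32 CPM in controls. Of the 8 genes listed, 1 had enough counts, Myo7a, and it was called higher. Summed fibroblast and mesenchyme markers lay between 7227 and 9156 CPM under the Nrf2 KO label and between 5964 and 7003 CPM in controls, with 5 of 9 tested genes called higher and 0 lower by edgeR. Col3a1, among the most abundant of these, ran the other way at 2821 CPM under the Nrf2 KO label and 4452 CPM in controls, and was called lower without Nrf2 KO replicate 1. DESeq2 called 5 of the 9 higher and 1 lower, beside 10.9% and 9.02% of all genes. The part of these shifts in the transferase values was not tested. In bulk RNA, fewer cells of a type and less RNA per cell cannot be told apart.

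The DNA before the start sites is shown for the 3 most abundant members and Gstt1, because the antioxidant response element is the sequence through which NRF2 is known to act. RefSeq windows on the mouse build GRCm38.p6, 250 bases before to 50 bases after a start site, matched 8 of the 10 members in 11 windows. There was no window for Gstt2 or Gsta4. Capitals mark matches to TGANNNNGC, a relaxed form of the element's core, on either strand. The windows are Gstp1 at chr19:4037863-4038162 (minus strand), Mgst1 at chr6:138140277-138140576 (plus strand), Gstt1 at chr10:75797682-75797981 (minus strand) and Gsto1 at chr19:47854723-47855022 (plus strand).
Gstp1: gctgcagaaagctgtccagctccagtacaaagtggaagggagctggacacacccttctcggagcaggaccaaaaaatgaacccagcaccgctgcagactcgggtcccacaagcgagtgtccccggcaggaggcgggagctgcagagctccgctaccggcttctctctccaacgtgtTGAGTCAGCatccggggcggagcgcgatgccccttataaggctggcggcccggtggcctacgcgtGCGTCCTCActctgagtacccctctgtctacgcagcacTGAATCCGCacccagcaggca
Mgst1: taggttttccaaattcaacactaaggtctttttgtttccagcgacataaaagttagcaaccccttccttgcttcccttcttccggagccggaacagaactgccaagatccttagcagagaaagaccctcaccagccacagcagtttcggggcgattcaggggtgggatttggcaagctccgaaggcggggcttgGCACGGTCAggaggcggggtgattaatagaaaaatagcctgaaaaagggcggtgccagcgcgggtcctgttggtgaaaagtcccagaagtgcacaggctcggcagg
Gstt1: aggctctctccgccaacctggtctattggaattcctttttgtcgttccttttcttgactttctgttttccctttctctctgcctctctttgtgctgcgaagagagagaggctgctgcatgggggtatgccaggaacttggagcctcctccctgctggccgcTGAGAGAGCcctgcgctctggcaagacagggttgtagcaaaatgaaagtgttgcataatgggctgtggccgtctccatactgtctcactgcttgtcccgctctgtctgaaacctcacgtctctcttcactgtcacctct
Gsto1: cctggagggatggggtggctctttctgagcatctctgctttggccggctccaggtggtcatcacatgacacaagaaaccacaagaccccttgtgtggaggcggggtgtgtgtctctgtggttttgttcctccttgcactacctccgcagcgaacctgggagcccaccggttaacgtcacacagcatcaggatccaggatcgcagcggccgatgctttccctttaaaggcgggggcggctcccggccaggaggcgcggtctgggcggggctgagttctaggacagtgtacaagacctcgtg

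The Gstp1 window held 3 matches to the relaxed core, of which TGAGTCAGC at position -74 relative to the start site overlaps the AP-1 motif TGAGTCA. The first Mgst1 window held GCACGGTCA at position -56, which read on the reverse strand matches the stricter core TGACNNNGC. Gstt1 carried TGAGAGAGC at position -89, and the Gsto1 window had no match to either form. The windows of the mu members Gstm1 and Gstm2, which are not shown, had no match to either form as well. On both strands, the strict core was found in 12.4% of all 32851 RefSeq mouse windows and in 1 of the 11 member windows. The relaxed core was found in 41.3% of all windows and in 6 of the 11 member windows, those of Gsta1, Gstp1, Gstt1, Gstt3 (both windows) and Mgst1. Both Gstt3 windows cover nearly the same bases and hold the same match. By gene, the relaxed core was found in 5 of the 8 members with a window. TGAGTCA was found in 5.2% of all windows. Such a match is a description of letters, and an absent match says only that these letters do not occur in this window.

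Across the 14618 genes tested, 505 (3.45%) were called lower and 706 (4.83%) higher in the Nrf2 KO-labelled libraries at an adjusted p under 0.05. Of the 10 members, 5 were called lower (Gstp1, Gstt1, Gstt2, Gstt3 and Gsto1) and 0 higher, but the list was selected on this contrast and nothing is read from that share. In 7 members every library labelled Nrf2 KO lay below every control library, a pattern shown by 17.1% of all tested genes, and the mirror pattern was shown by 17.1% as well. The other 3 members, Gsta4, Gstm1 and Gstm2, had overlapping groups. The median log2 fold change was -1.37 over the members and 0.04 over all tested genes.

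**Figure D1:**
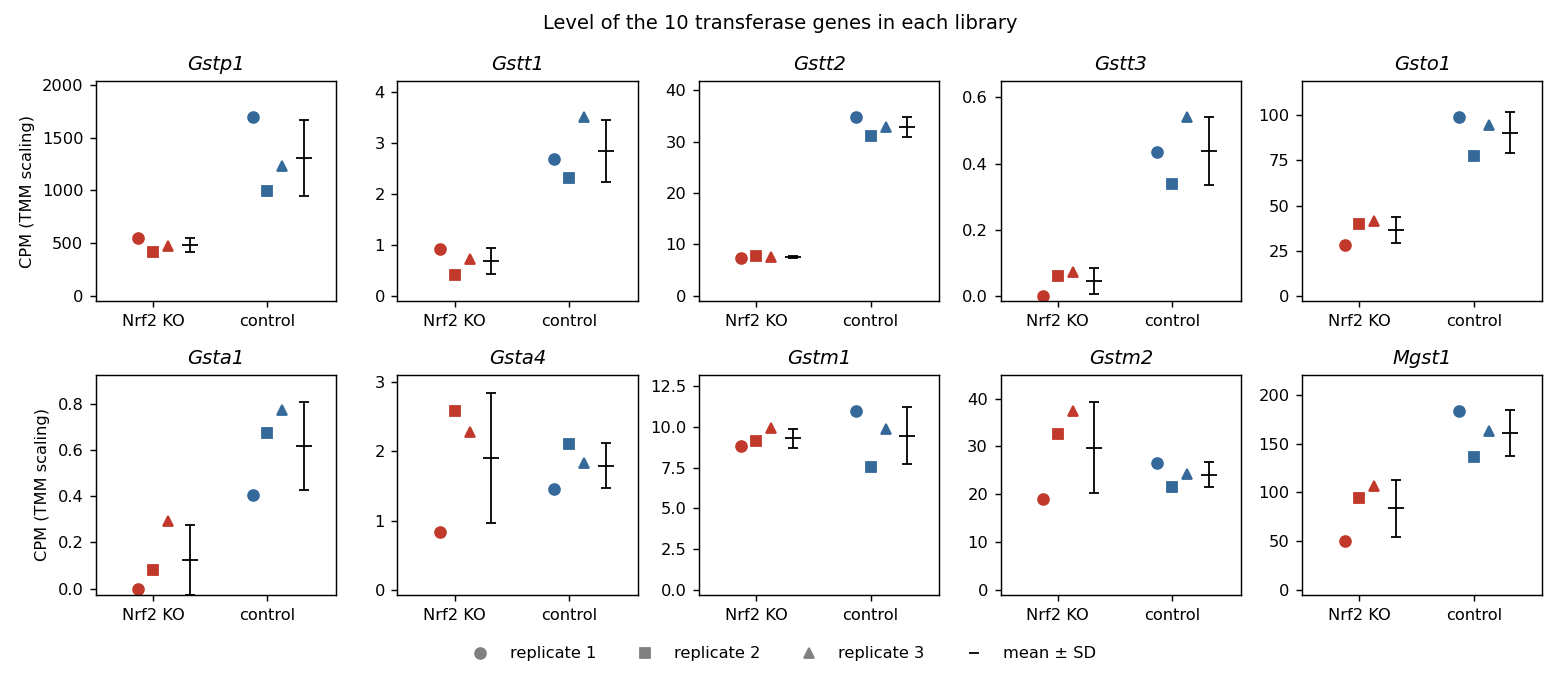
Level of each member in CPM (TMM scaling, linear axis from about 0) in the 3 Nrf2 KO-labelled libraries and the 3 control libraries, with marker shape giving the replicate number and bars the mean ± SD. The groups are separate for Gstp1, the 3 theta genes, Gsto1, Gsta1 and Mgst1 and overlap for Gsta4, Gstm1 and Gstm2.

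Gstp1 encodes the pi-class enzyme, which detoxifies electrophiles and also binds and restrains the stress kinase JNK. Its level was 553.3, 420.2 and 476.7 CPM in the Nrf2 KO-labelled libraries, against 1696, 990.2 and 1230 CPM in the control libraries. The highest library labelled Nrf2 KO was thus below the lowest control library. The means were 483.4 ± 66.8 CPM under the Nrf2 KO label and 1305 ± 358.7 CPM in controls (SD, n = 3 each), a log2 fold change of -1.43 (SE 0.26), or 2.7-fold lower. Reads of Gstp1 may be shared with close copies: over the mouse coding sequence it is 98.1% identical to Gstp2, and 62.3% of its 50-base words also occur in another transferase. Gstp2 had no entry in the count table, so its own level is not known.

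The theta class, whose enzymes act on small halogenated compounds and organic hydroperoxides, had lower levels under the Nrf2 KO label in all 3 members, with negative log2 fold changes under every scaling tried. Gstt2 was the most even of them, with 7.34, 7.7 and 7.58 CPM in the Nrf2 KO-labelled libraries, against 34.8, 31.0 and 32.8 CPM in the control libraries. Its means of 7.54 ± 0.182 CPM under the Nrf2 KO label and 32.8 ± 1.9 CPM in controls (SD, n = 3 each) gave a log2 fold change of -2.12 (SE 0.15), or 4.35-fold lower. The spread within each group was small beside this difference.

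Gstt1, which acts on small halogenated compounds such as dichloromethane, was less abundant. It had 0.926, 0.407 and 0.729 CPM in the Nrf2 KO-labelled libraries (29, 20 and 30 counts), against 2.68, 2.32 and 3.51 CPM in the control libraries (105, 103 and 136 counts). Its log2 fold change was -2.05 (SE 0.38), and the groups did not overlap.

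Gstt3 lay close to the detection limit. It had 0, 3 and 3 counts in the Nrf2 KO-labelled libraries, against 17, 15 and 21 counts in the control libraries, and a fitted log2 fold change of -3.1 (SE 0.67). Summed over each group, 6 counts under the Nrf2 KO label against 53 in controls gave a depth-adjusted ratio of 0.111, with an exact 95% interval between 0.0391 and 0.259 that covers counting error only. Gstt3 was selected with this contrast known and passed the count filter through the controls, so nothing is read from where this interval lies. Over coding sequence the 3 theta genes are between 60.5% and 75.8% identical and share 0.0% of their 50-base words with any other mouse transferase transcript.

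Gsto1 encodes an omega-class enzyme, which reduces dehydroascorbate and methylated arsenicals and removes glutathione from modified proteins. It had 28.0, 39.9 and 41.2 CPM in the Nrf2 KO-labelled libraries, against 99.1, 77.5 and 94.7 CPM in the control libraries. The means were 36.4 ± 7.29 CPM under the Nrf2 KO label and 90.5 ± 11.4 CPM in controls (SD, n = 3 each), a log2 fold change of -1.32 (SE 0.2). Replicate 1 was the lowest of the Nrf2 KO-labelled libraries, and its control counterpart the highest of the controls. Gsto2, the class's other gene, averaged 5.59 ± 0.341 CPM under the Nrf2 KO label and 5.01 ± 0.565 CPM in controls (SD, n = 3 each), with a log2 fold change of 0.16 and an adjusted p of 0.691 (edgeR).

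In the alpha class, Gsta1, whose enzyme is best known from liver, had 0, 4 and 12 counts in the Nrf2 KO-labelled libraries, against 16, 30 and 30 counts in the control libraries. The fitted log2 fold change of -2.24 (SE 0.86) was not called, although the groups did not overlap. The summed counts of 16 under the Nrf2 KO label and 76 in controls gave a depth-adjusted ratio of 0.207 (exact 95% interval 0.113 to 0.358, counting error only). Nothing is read from this interval either, because Gsta1 was selected and passed the count filter in the same way as Gstt3. Gsta1 is 97.5% identical to Gsta2 over mouse coding sequence, so its reads may be shared.

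Gsta4 encodes the alpha-class enzyme that conjugates 4-hydroxynonenal, a product of lipid peroxidation. It had 0.83, 2.59 and 2.28 CPM in the Nrf2 KO-labelled libraries, against 1.45, 2.11 and 1.83 CPM in the control libraries. The log2 fold change was 0.09 (SE 0.45), between -0.2 and 0.43 over the alternatives, and replicate 1 was the lowest library of each group.

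The mu-class enzymes conjugate a broad range of aromatic electrophiles, and both members had overlapping groups. Gstm1 had 8.81, 9.16 and 9.92 CPM in the Nrf2 KO-labelled libraries, against 11.0, 7.53 and 9.87 CPM in the control libraries, a log2 fold change of -0.03 (SE 0.21) that lay between -0.17 and 0.14 over the alternatives. Gstm2 had 19.1, 32.7 and 37.5 CPM in the Nrf2 KO-labelled libraries, against 26.6, 21.5 and 24.2 CPM in the control libraries, a log2 fold change of 0.31 (SE 0.27). Replicates 2 and 3 of the Nrf2 KO label were above every control for Gstm2, whereas replicate 1 was below every control. Gstm1 and Gstm2 are 86.0% identical over mouse coding sequence, and 10.9% of the 50-base words of Gstm1 occur in another transferase, so part of their reads may be shared.

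Mgst1 encodes a membrane-bound transferase that also reduces lipid hydroperoxides. It had 50.0, 94.0 and 106.1 CPM in the Nrf2 KO-labelled libraries, against 183.7, 136.0 and 162.5 CPM in the control libraries. The means of 83.4 ± 29.6 CPM under the Nrf2 KO label and 160.7 ± 23.9 CPM in controls (SD, n = 3 each) gave a log2 fold change of -0.95 (SE 0.3), which edgeR did not call and DESeq2 called lower. Its groups did not overlap, and the lowest value by far was that of replicate 1 of the Nrf2 KO label.

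**Figure D2:**
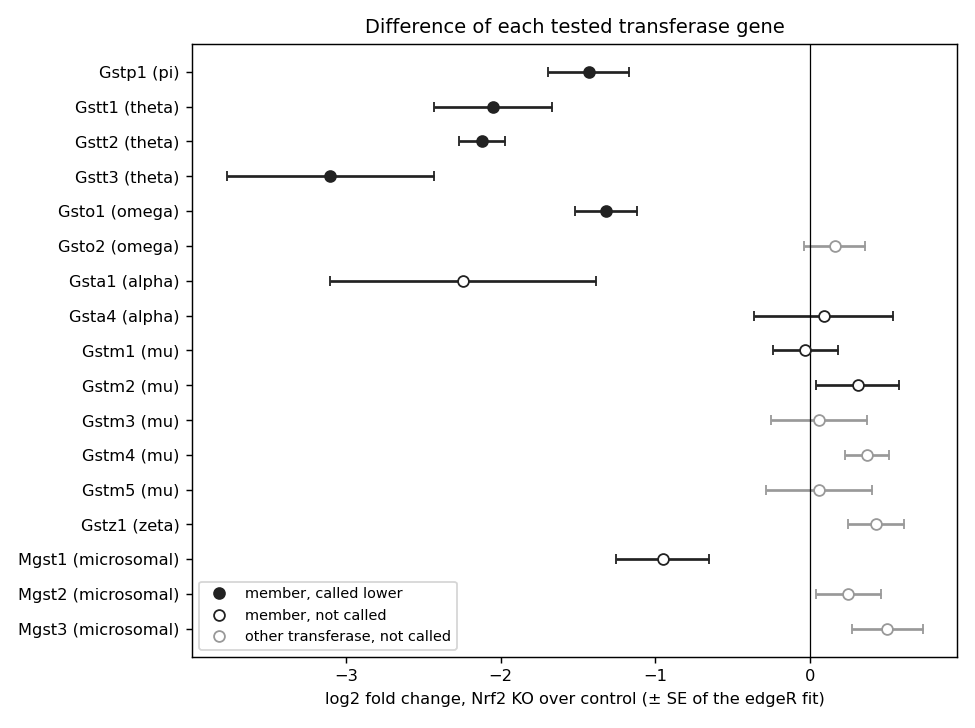
Log2 fold change of each tested transferase gene, Nrf2 KO-labelled libraries over control libraries, with bars of 1 SE from the edgeR fit. The 5 filled points, all left of -1, are Gstp1, Gstt1, Gstt2, Gstt3 and Gsto1, and the 7 grey points of other transferases lie between 0.06 and 0.5 in this scaling.

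The libraries share replicate numbers across groups, and those numbered 1 and those numbered 2 deviated together from their group means. For number 3 the correlation of deviations was 0.31, below the 0.539 of Nrf2 KO replicate 3 with control replicate 2. The ratios within numbers are therefore a description. Within numbers 1, 2 and 3, the log2 ratio of the library labelled Nrf2 KO to its control was -1.62, -1.24 and -1.37 for Gstp1. For Gstt2 the ratios were -2.24, -2.01 and -2.11, and for Gstt1 they were -1.53, -2.51 and -2.27. Gsto1 gave -1.83, -0.96 and -1.2, and Mgst1 gave -1.88, -0.53 and -0.62. All of these ratios were negative, and those of 4 of these 5 genes, all but Gstt1, were most negative for number 1. Gstm2 gave -0.48, 0.61 and 0.63, Gsta4 gave -0.81, 0.29 and 0.32, and Gstm1 gave -0.32, 0.28 and 0.01. These ratios were negative for number 1 and positive for numbers 2 and 3.

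**Figure D3:**
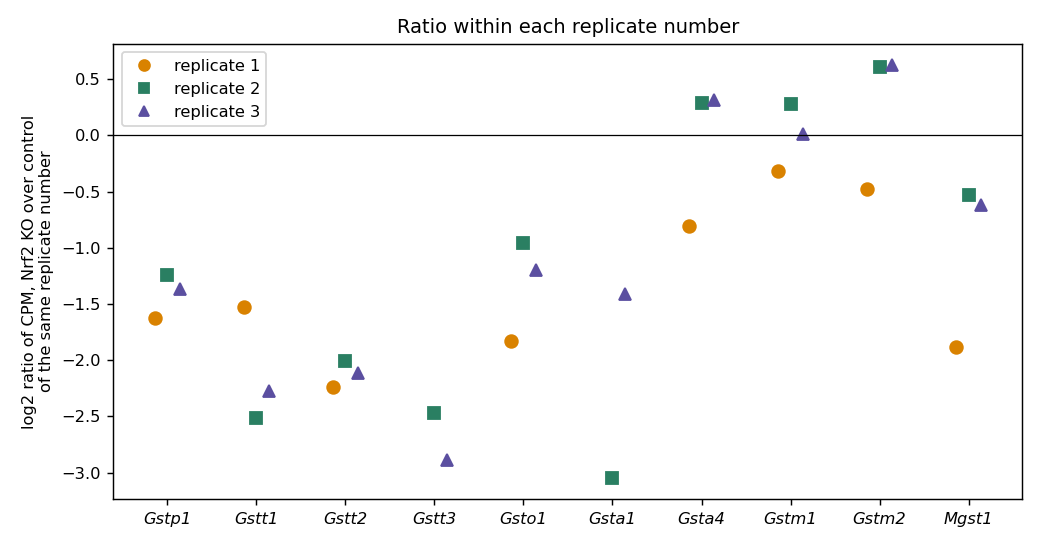
Log2 ratio of CPM, library labelled Nrf2 KO over the control library of the same replicate number, for each member. Numbers 2 and 3 lie together for most members, and number 1 lies below them for Gstp1, Gstt2, Gsto1, Mgst1, Gsta4 and the mu members; Gstt3 and Gsta1 have no point for number 1, where the count was 0.

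With the replicate number as a block in the fit, 7.92% of all genes were called lower and 10.4% higher, and the members called were again 5 lower and 0 higher. Leaving out replicate 1 of the Nrf2 KO label raised the shares over all genes to 14.5% lower and 15.6% higher. In that fit 6 members were lower, with Mgst1 added at a log2 fold change of -0.69 (SE 0.16), and 1 was higher, Gstm2 at 0.54 (SE 0.13). Without both libraries numbered 1, the shares were 22.1% lower and 24.0% higher, and 7 members were lower and 1 higher, with Gsta1 added at -1.99 (SE 0.51). DESeq2 called 9.02% of genes lower and 10.9% higher, and 6 of the members lower, with Mgst1 added to the 5.

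Leaving out any other single library lowered the number of calls in both directions. Gstt2 was then the 1 member called, lower, with log2 fold changes between -2.18 and -2.06 over all 15 alternatives. The share of all genes called lower was 0.74% without replicate 2 and 0.739% without replicate 3 of the Nrf2 KO label. It was 0.691%, 0.659% and 0.379% without control replicates 1, 2 and 3. Gstp1, Gstt1 and Gsto1 kept negative values in all 15 alternatives, between -1.6 and -1.2 for Gstp1, between -2.37 and -1.78 for Gstt1 and between -1.41 and -1.08 for Gsto1. Gstt3 lay between -3.5 and -2.65 in the 14 alternatives that tested it.

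Levels of different genes were compared per transcript length, from the authors' deposited group FPKM (1 value per group, with no replicate error). Gstp1 stood at 515.7 FPKM under the Nrf2 KO label and 1400 FPKM in control, the highest transferase in both groups. Among all symbols it ranked 110 under the Nrf2 KO label and 47 in control. Among the members Mgst1 followed with 74.6 FPKM under the Nrf2 KO label and 146.5 FPKM in control, and Gsto1 with 33.6 FPKM under the Nrf2 KO label and 84.8 FPKM in control. The theta genes together came to 4.92 FPKM under the Nrf2 KO label and 22.0 FPKM in control, most of it Gstt2, at 4.43 FPKM under the Nrf2 KO label and 19.5 FPKM in control.

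Of the symbols in the table, 10844 begin with LOC and 650 with RGD, names of the style used for rat genes, so in the alpha and mu classes a symbol may stand for a different copy than in mouse. The remaining members lay below Gsto1 in the authors' deposited values. Gstm2 stood at 26.7 FPKM under the Nrf2 KO label and 22.4 FPKM in control, and Gstm1 at 7.33 FPKM under the Nrf2 KO label and 7.49 FPKM in control. Gstt1 had 0.472 FPKM under the Nrf2 KO label and 2.29 FPKM in control. Gsta4 had 1.92 FPKM under the Nrf2 KO label and 1.85 FPKM in control, and Gsta1 0.117 FPKM under the Nrf2 KO label and 0.622 FPKM in control. Gstt3, at 0.0179 FPKM under the Nrf2 KO label and 0.195 FPKM in control, was the lowest member.

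**Figure D4:**
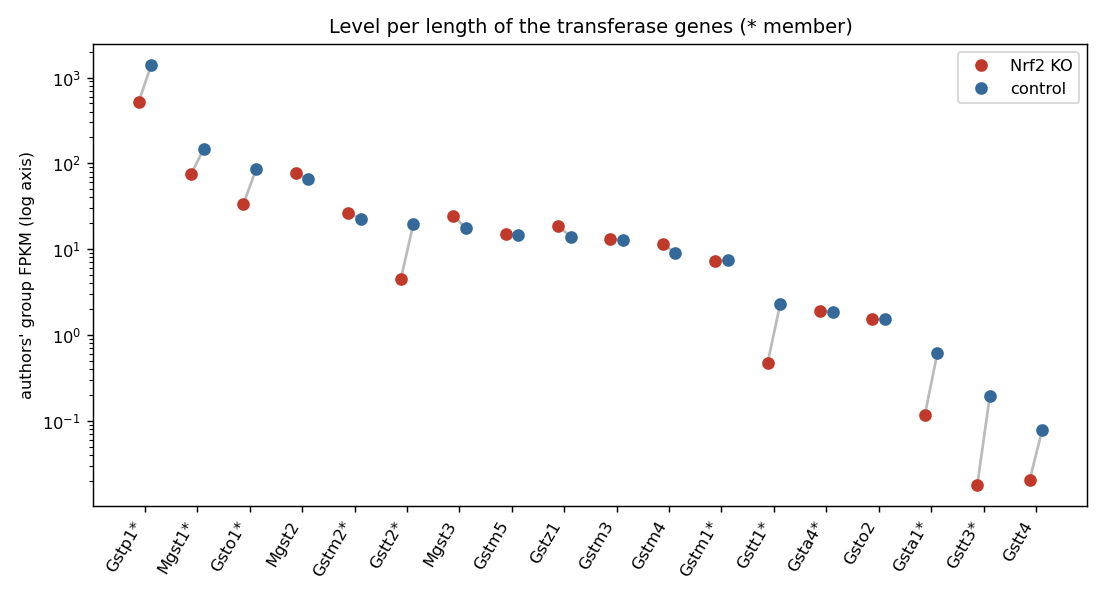
The authors' deposited FPKM (log axis) of the 18 transferase genes above 0.01 FPKM in both groups, with the group labelled Nrf2 KO left of control for each gene and members starred. Gstp1 is highest at 515.7 FPKM under the Nrf2 KO label and 1400 FPKM in control, and Gstt2 is in place 12 of the transferases under the Nrf2 KO label and in place 6 in control.

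Summed over the 10 members, the counts made up 668.3, 606.8 and 682.4 CPM in the Nrf2 KO-labelled libraries, against 2056, 1269 and 1560 CPM in the control libraries. Gstp1 supplied 82.8%, 69.2% and 69.9% of the members' counts in the Nrf2 KO-labelled libraries, against 82.5%, 78.0% and 78.8% in the control libraries. The sum therefore largely follows Gstp1. Without Gstp1, the other 9 members summed to 169.1 ± 47.9 CPM under the Nrf2 KO label and 323.3 ± 41.1 CPM in controls (SD, n = 3 each). The transferases outside the list came to 160.5 ± 14.7 CPM under the Nrf2 KO label and 130.8 ± 8.09 CPM in controls (SD, n = 3 each).

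The family's other genes are those left after the members were selected with this contrast known, so their counts are a description and not an independent comparison. Of 22 further transferase genes listed, 16 were in the table and 7 had enough counts: Gsto2, Gstm3, Gstm4, Gstm5, Gstz1, Mgst2 and Mgst3. By edgeR 0 of these 7 were called lower and 0 higher, 1 had an unadjusted p under 0.05 (Gstm4), and DESeq2 called that gene higher. The median log2 fold change was 0.25, beside 0.04 over all genes, and all 7 values were positive except under upper-quartile scaling, the replicate block and some of the fits that left out 1 library, where up to 2 were negative. Mgst2, a membrane-bound transferase that can make leukotriene C4, averaged 45.8 ± 10.3 CPM under the Nrf2 KO label and 38.5 ± 3.22 CPM in controls (SD, n = 3 each). Its log2 fold change was 0.25 (SE 0.21) with an adjusted p of 0.525 (edgeR).

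Gstz1, which acts in tyrosine breakdown as maleylacetoacetate isomerase, had a log2 fold change of 0.43 (SE 0.18) and an adjusted p of 0.203 (edgeR). Gstm4 had 21.8, 22.6 and 22.7 CPM in the Nrf2 KO-labelled libraries, against 16.3, 17.6 and 17.9 CPM in the control libraries. Its log2 fold change was 0.37 (SE 0.14) with an adjusted p of 0.161 (edgeR). Mgst3 had 20.3, 20.1 and 21.7 CPM in the Nrf2 KO-labelled libraries, against 18.8, 10.6 and 14.5 CPM in the control libraries. It was not called (log2 fold change 0.5, adjusted p = 0.254, edgeR). For Gstm4, Gstz1 and Mgst3 every library labelled Nrf2 KO lay above every control library, a pattern shown by 17.1% of all tested genes. The groups of the other tested genes of this list overlapped. Without replicate 1 of the Nrf2 KO label, Gstm4 at 0.38 (adjusted p = 0.0458) and Mgst2 at 0.42 (adjusted p = 0.0335) were called higher by edgeR. Gsta3 and Gstk1 were at 0 counts in all 6 libraries, as were 9586 of the 30438 symbols. The annotation used for counting is not given, so a 0 need not mean an absent transcript.

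The genes next to the members on the mouse chromosomes were examined as a further comparison, taking the 5 nearest genes in the table on each side of each locus. Of 60 such neighbours 39 were tested, and 8 were called lower and 0 higher by edgeR, beside 3.45% lower and 4.83% higher over all genes. Their median log2 fold change was -0.38, beside 0.04 over all genes. DESeq2 called 12 lower and 2 higher, beside 9.02% and 10.9% of all genes. The replicate block called 13 lower and 2 higher, beside 7.92% and 10.4% of all genes. The fit without control replicate 3 called 0 of the 39, and 0.379% of all genes lower. Of the 8, 3 lay beside the theta genes, 3 beside Gstp1 and 1 each beside Gsto1 and the alpha genes.

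The theta genes lie together on chromosome 10, with Gstt3 at 75774117 to 75781422, Gstt1 at 75783813 to 75798584 and Gstt2 at 75831842 to 75837419. All 9 tested neighbours had negative log2 fold changes there, with a median of -1.1. Among them, Chchd10 averaged 0.144 CPM under the Nrf2 KO label and 0.34 CPM in controls, close to the count filter. A gene this low is tested mainly through its higher group, so its sign adds nothing to that count. Ddt, which encodes D-dopachrome tautomerase, averaged 30.2 ± 10.6 CPM under the Nrf2 KO label and 103.6 ± 10.8 CPM in controls (SD, n = 3 each), with a log2 fold change of -1.78 (SE 0.3, adjusted p = 0.02, edgeR). Mif, encoding the related cytokine macrophage migration inhibitory factor, had a log2 fold change of -1.25 (SE 0.22, adjusted p = 0.0234, edgeR). Mmp11, a secreted metalloproteinase, had -1.64 (SE 0.21, adjusted p = 0.00841, edgeR). The 6 other tested neighbours were not called by edgeR. Of these, the glutathione hydrolase genes Ggt1 at -0.9 and Ggt5 at -1.1 were called lower by DESeq2 and with the replicate block.

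Beside Gstp1, which lies at 4035411 to 4037912 on chromosome 19, Acy3, Nudt8 and Tmem134 were called lower among 8 tested neighbours (median -0.68). The log2 fold changes were -1.04 for Nudt8 (adjusted p = 0.0299) and -1.07 for Tmem134 (adjusted p = 0.0397) by edgeR. Acy3 encodes an aminoacylase that acts on mercapturic acids, the end products of glutathione conjugation, and had 0, 2 and 4 counts in the Nrf2 KO-labelled libraries, against 31, 32 and 22 counts in the control libraries. Its fitted log2 fold change was -3.75 (SE 0.68, adjusted p = 0.0237, edgeR). It passed the count filter only through the control libraries, as did Klhl31, so both had to differ to be tested, and their calls support nothing in the counts they enter. Cfap43 beside Gsto1 had -1.91 (adjusted p = 0.0267) and Klhl31 beside the alpha genes, at 0.0484 CPM under the Nrf2 KO label and 0.828 CPM in controls, had a fitted -4.0 (adjusted p = 0.0199) by edgeR. Around the mu genes 0 of 6 tested neighbours were called by edgeR, with 2 at an unadjusted p under 0.05 and 1 called by DESeq2, and the median was 0.48. Around Mgst1 0 of 4 were called by edgeR or DESeq2, with 1 at an unadjusted p under 0.05.

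**Figure D5:**
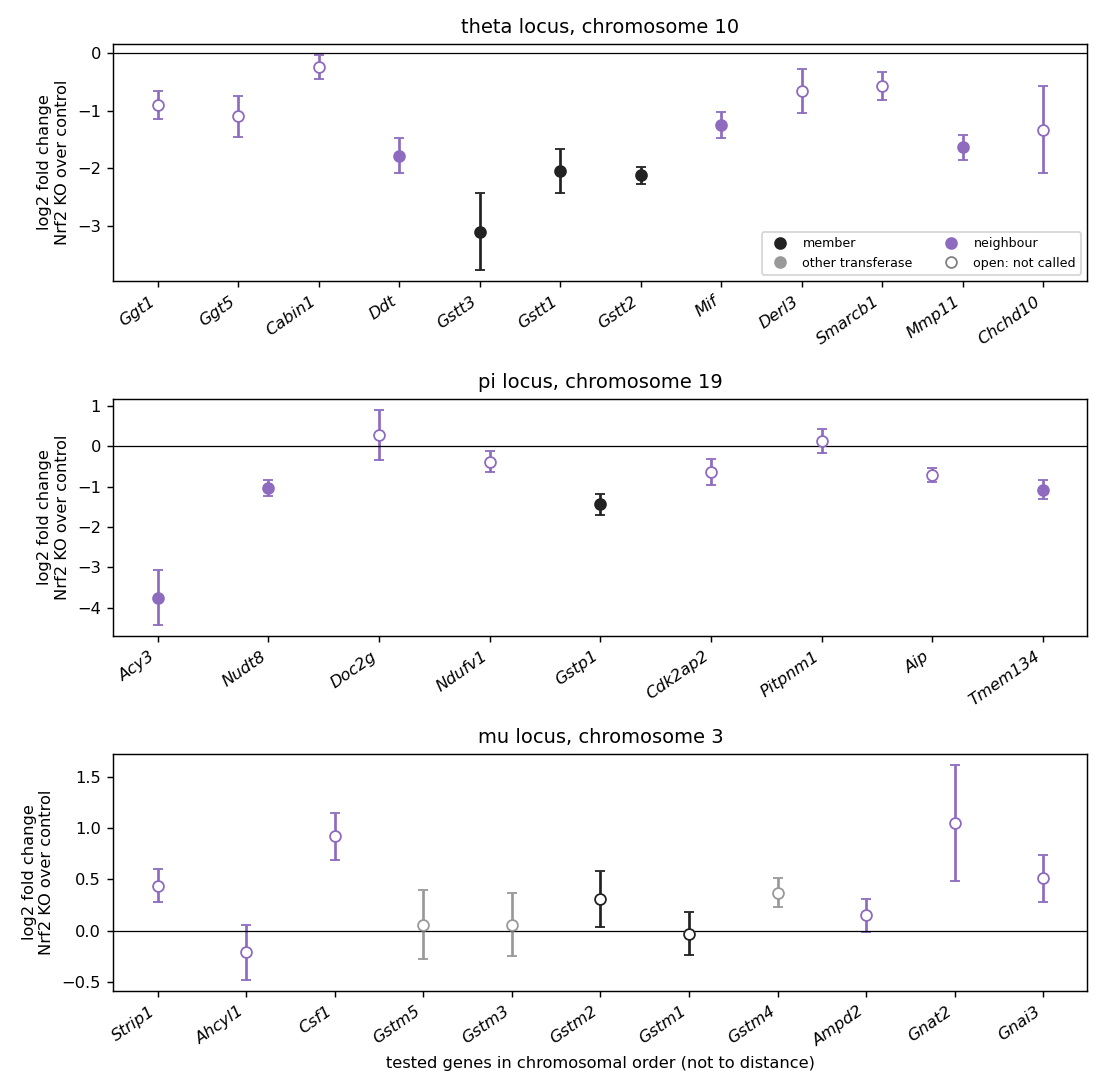
Log2 fold change, Nrf2 KO-labelled libraries over control libraries, of the tested genes at 3 loci in chromosomal order (not to distance), with bars of 1 SE and filled points for called genes. All 12 points of the theta locus lie below 0, and they include the theta members, which were selected with this contrast known. The Gstp1 locus is mixed, and no gene of the mu locus is called.

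Around the conjugation step, the supply of glutathione was examined with 9 genes of its synthesis and precursor uptake. This list and those below were chosen with earlier results of these data known. Their counts and adjusted p-values are a description and not an independent comparison. All 9 were tested, with a median log2 fold change of -0.31. EdgeR called 2 lower and 0 higher, beside 3.45% and 4.83% of all genes. Gclc, the catalytic subunit of the first and rate-limiting enzyme, had -0.66 (adjusted p = 0.0576, edgeR), and with it 3 were lower by DESeq2, by limma-voom and with the replicate block. Over all genes, DESeq2 called 9.02% lower and the replicate block 7.92%. In the fit without Nrf2 KO replicate 1, 3 of the 9 were lower and 1 higher, beside 14.5% and 15.6% of all genes. Cbs, which starts the conversion of homocysteine towards cysteine, averaged 1.26 ± 0.425 CPM under the Nrf2 KO label and 9.83 ± 0.491 CPM in controls (SD, n = 3 each), with a log2 fold change of -2.96 (SE 0.29, adjusted p = 0.0038, edgeR). Gss, which adds glycine in the last step of glutathione synthesis, averaged 37.6 ± 3.01 CPM under the Nrf2 KO label and 67.6 ± 1.64 CPM in controls (SD, n = 3 each), with a log2 fold change of -0.85 (SE 0.13, adjusted p = 0.0156, edgeR).

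Downstream of conjugation, 16 of 19 genes for glutathione breakdown and mercapturate formation were tested (median -0.32). EdgeR called 2 lower and 0 higher, beside 3.45% and 4.83% of all genes. DESeq2 called 4 lower and 2 higher, beside 9.02% and 10.9% of all genes. Besides Acy3, which passed the count filter only through the control libraries, edgeR called Anpep, a membrane aminopeptidase that trims the conjugate. Anpep averaged 1.66 ± 0.274 CPM under the Nrf2 KO label and 6.71 ± 1.05 CPM in controls (SD, n = 3 each). Its log2 fold change was -2.01 (SE 0.25, adjusted p = 0.00757, edgeR). With the replicate block 5 of the 16 were lower and 1 higher, and without replicate 1 of the Nrf2 KO label 7 were lower and 2 higher. Over all genes the shares also rose, to 7.92% lower and 10.4% higher with the block and to 14.5% lower and 15.6% higher without that library. Of 5 tested conjugate export pumps 0 were called by edgeR or DESeq2 and 0 had an unadjusted p under 0.05, with a median of 0.1.

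Among 15 tested glutathione peroxidases, the reductase, glutaredoxins and their relatives, 1 gene was lower and 1 higher by edgeR (median -0.05). Over all genes, 3.45% were lower and 4.83% higher. DESeq2 called 3 of the 15 lower and 1 higher, beside 9.02% and 10.9% of all genes. Hagh, the second enzyme of methylglyoxal removal, had a log2 fold change of -1.13 (SE 0.22, adjusted p = 0.0278). Gpx8, a peroxidase of the endoplasmic reticulum, averaged 470.6 ± 48.3 CPM under the Nrf2 KO label and 255.7 ± 44.8 CPM in controls (SD, n = 3 each), with a log2 fold change of 0.88 (SE 0.2, adjusted p = 0.0477, edgeR). That call ended in 8 of the 15 alternatives, among them every fit without 1 library other than Nrf2 KO replicate 1, with values between 0.76 and 1.01. Without replicate 1 of the Nrf2 KO label, 4 of these genes were lower and 5 higher, in a fit that called 14.5% of all genes lower and 15.6% higher.

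Of 9 other tested proteins with a transferase fold, 1 was lower and 0 higher (median -0.09), beside 3.45% and 4.83% of all genes. This was Eef1e1, a subunit of the tRNA synthetase complex, at 52.9 ± 3.12 CPM under the Nrf2 KO label and 84.0 ± 6.83 CPM in controls (SD, n = 3 each), with a log2 fold change of -0.67 (SE 0.14, adjusted p = 0.0349, edgeR). With the replicate block 2 of them were lower and 2 higher, beside 7.92% and 10.4% of all genes. The leukotriene synthase gene Ltc4s, the 1 tested membrane relative of the microsomal enzymes, had a log2 fold change of -0.79 with an adjusted p of 0.279 (edgeR).

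Of the regulators of transferase genes, 11 were tested, with 1 lower and 2 higher (median 0.29), beside 3.45% and 4.83% of all genes. Mafk, a small MAF protein that pairs with NRF2 on the antioxidant response element, had 32.9, 36.0 and 36.4 CPM in the Nrf2 KO-labelled libraries, against 74.7, 80.4 and 78.0 CPM in the control libraries. Its log2 fold change was -1.15 (SE 0.13, adjusted p = 0.00565, edgeR), and the groups were far apart. Maff, its close relative, went the other way with 0.92 (SE 0.18, adjusted p = 0.0287, edgeR), and the other gene called higher was Nfe2l2. With the replicate block 1 was lower and 4 were higher, beside 7.92% and 10.4% of all genes. Of 4 tested signalling proteins known to bind transferases, 0 were called by edgeR or DESeq2 and 0 had an unadjusted p under 0.05 (median 0.31). The one with the highest mean CPM over the 6 libraries, the kinase gene Mapk9, had a log2 fold change of -0.1 with an adjusted p of 0.859 (edgeR). Without Nrf2 KO replicate 1 it was called lower at -0.43 (adjusted p = 0.0391, edgeR).

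Likeness of pattern was described for the 3 most abundant members as Pearson's r of log2 CPM over the 6 libraries, which share 2 groups and their replicate numbers, against 14608 other tested genes. For Gstp1 the most alike were Leng8 (r = 0.9967), Nrm (0.9966) and Cfap43, the neighbour of Gsto1 (0.9963). For Mgst1 they were the glycolytic gene Aldoa (0.9995), the ribosomal protein gene Rps4x (0.9995) and Fam162a (0.9989). For Gsto1 they were the ATP synthase subunit gene Atp5c1 (0.9988), Thyn1 (0.9978) and the uncharacterised LOC100912604 (0.9975). Among the members themselves, Gstt2 correlated with Gstp1 at 0.95 and with Gsto1 at 0.96, whereas Gstm2 correlated with Gstp1 at -0.39 and with Gstt1 at -0.5. These values include the group difference on which the members were selected, so nothing is read from them.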

How the data were processed

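Poly(A) RNA of HEI-OC1 cells was sequenced in 3 libraries labelled Nrf2 KO and 3 control libraries. The authors deposited a table of raw read counts per gene and 1 FPKM value per gene and group. fastp, FastQC, HISAT2 and DESeq2 1.34.0 are named in the submitters' processing notes, as is the human build hg18, although the cells are mouse and many symbols are of rat style. The counting program, its strand setting, the annotation and the way replicates were combined into group FPKM are not given in the labels or notes at hand.

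The fit across genes used edgeR 4.0.16 under R 4.3.3 (robust quasi-likelihood test, TMM scaling, filterByExpr with a minimum count of 10 and a total of 15, 2-sided, Benjamini-Hochberg adjustment over 14618 genes, threshold 0.05, no covariate). CPM are TMM-scaled, and edgeR was tested on simulated counts. The alternatives were other scalings and filters, DESeq2 1.42.0, limma-voom (limma 3.58.1), the replicate number as a block, and leaving out libraries. Deviations from the group means correlated between same-numbered libraries (r = 0.754, 0.696 and 0.31 for numbers 1, 2 and 3). Nrf2 KO replicate 3 was closer to control replicate 2, at 0.539, than to control replicate 3. Deviations from a mean of 3 libraries are tied to each other, so these values cannot show that the numbers pair the libraries. Within-group pairs differed by far more than sampling noise (chi-square per degree of freedom at least 14.3).

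Members and gene lists were chosen with earlier results of these data known. Genes were named by rule: all members, called members of the family list or its 3 most abundant genes, up to 3 called genes per pathway list or its most abundant gene, called neighbours, and the 3 genes most alike to each of the 3 most abundant members. Myo7a, Ggt1, Ggt5, Gclc, Chchd10, Gsto2, Gsta3, Gstk1, Mgst3 and the marker genes were named outside it, after their values were seen. In addition, 1 gene that the rule would name is left out. Gene positions and windows came from RefSeq (GRCm38.p6), and coding sequences from GENCODE M21.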

Additional observations from a re-analysis of the deposited data

How the results depend on the processing

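Over all genes, 706 were called higher and 505 lower in the Nrf2 KO-labelled libraries. DESeq2 called 1598 higher and 1318 lower, the replicate block 1520 and 1158, and the fit without both libraries numbered 1 called 3540 and 3253. Leaving out 1 library at a time gave between 139 and 2323 higher and between 57 and 2162 lower, the highest without Nrf2 KO replicate 1 and the lowest without control replicate 3. Among the other transferases, 0 were called higher, against 1 by DESeq2, between 0 and 2 with 1 library left out, and 5 without both libraries numbered 1 (Gstm3, Gstm4, Gstm5, Mgst2 and Mgst3). The replicate block changed no member's call. Over the 15 alternatives, the members' log2 fold changes gave 148 values, of which 21 lost and 6 gained a call and 9 changed sign, all 9 those of Gsta4 and Gstm1. The 22 other named genes gave 327 values, of which 76 lost and 7 gained a call. The 2 sign changes among these were those of Mapk9 (-0.43 to 0.04 with 1 library left out, against -0.1). Of the other genes called, Cbs was called in 15, Mafk in 14 and Anpep in 13 alternatives, and the rest in 7 to 11, most calls ending when a library other than Nrf2 KO replicate 1 was left out. Gstt3 was called in 8 and Gsta1 in 1 of the 15 alternatives, and both fell below a filter of 1 CPM. Their counts, at most 12 per library labelled Nrf2 KO, limit what can be measured.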
